A study of Homo sapiens with 18 samples.

Results

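The genes described here are 8 protein arginine methyltransferase genes, PRMT1, PRMT2, PRMT3, CARM1, PRMT5, PRMT6, PRMT7 and PRMT9, in the neuroblastoma cell line SHEP.tet21n (SHEP21N in some labels). Their introns were taken from the table of spliced introns as those with at least 1 splice site on an annotated exon boundary of a member gene. This gave 150 introns in 36 clusters, out of 233650 introns in 51819 clusters. The cells carry a human MYCN cDNA that doxycycline (Dox) represses, so cells given 2 µg/mL Dox are named MYCN- and cells given the vehicle DMSO are named MYCN+. Each was transfected with a control siRNA (SNRPD3+) or with siRNA 1 or siRNA 2 against SNRPD3 (SNRPD3-), which makes 6 groups of 3 libraries, 18 in all. MYCN-/SNRPD3+ is called wildtype. Dox was in every MYCN- library and in none of the MYCN+ libraries, so loss of MYCN and presence of Dox cannot be told apart, and all groups come from 1 cell line. The study describes its replicates as independent and biological, while the labels give only replicate numbers.

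Arginine methyltransferases move a methyl group from S-adenosylmethionine to arginine side chains of proteins such as histones and RNA-binding proteins. Type I enzymes (PRMT1, PRMT2, PRMT3, CARM1 and PRMT6) make asymmetric dimethylarginine, type II enzymes (PRMT5 and PRMT9) make symmetric dimethylarginine, and the type III enzyme PRMT7 makes monomethylarginine. PRMT5, with its partner WDR77, methylates Sm proteins of the spliceosome, among them SmD3, the product of SNRPD3, before Sm rings are assembled on small nuclear RNAs. The comparisons asked whether splicing of the transcripts of these enzymes differed when SNRPD3, MYCN or both were changed.

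The measurement was the percent spliced in (PSI), here the share of the reads spanning any intron of a cluster that removed a given intron, where a cluster is a set of introns that share splice sites. The PSI values of a cluster sum to 100%, so its introns are not independent, and PSI says nothing of how much of a transcript was made. The skipping share of an exon is the PSI of the intron that leaves the exon out, divided by that PSI plus the mean PSI of its 2 flanking introns. Each flanking intron runs from the exon to an end of that skipping intron, so introns to exons in between are not included. Read numbers behind the PSI values are unknown, as is library depth, so counting error could not be set and all errors are spreads between libraries. Coordinates are hg38, exons are numbered along the Ensembl canonical transcript, and errors are SD over 3 libraries unless another n is given.

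Annotated introns made up 105 of the 150, and the other 45 are unannotated. All 150 began with GT and ended with AG on the strand of the gene. PRMT7 had the largest number of introns (37), followed by PRMT2 (27), PRMT3 (22), PRMT9 (20), CARM1 (19), PRMT5 (14) and PRMT1 (11). PRMT6 has 1 exon in its canonical transcript and 0 introns were listed for it. The table also held 18 sets of introns around annotated cassette exons of the members, covering 17 different exons, with none in PRMT5.

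The exons on which the results turn are printed here from the reference genome, on the strand of each gene and 5′ to 3′, with the exon in capitals and 10 bases of intron on either side in lower case. PRMT2 exons 8 and 11 and PRMT7 exon 5 are shown because their skipping share was called in a comparison. PRMT1 exon 2 and CARM1 exon 15 are shown as known alternative coding exons of the family, and exon 2 of PRMT3 and of PRMT9 as cassette exons of the remaining members.
PRMT2 exon 8: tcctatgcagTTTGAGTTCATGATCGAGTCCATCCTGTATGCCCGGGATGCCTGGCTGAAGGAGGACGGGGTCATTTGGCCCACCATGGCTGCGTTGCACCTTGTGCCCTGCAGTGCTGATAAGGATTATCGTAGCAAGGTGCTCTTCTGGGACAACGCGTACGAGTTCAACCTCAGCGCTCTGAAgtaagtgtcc
PRMT2 exon 11: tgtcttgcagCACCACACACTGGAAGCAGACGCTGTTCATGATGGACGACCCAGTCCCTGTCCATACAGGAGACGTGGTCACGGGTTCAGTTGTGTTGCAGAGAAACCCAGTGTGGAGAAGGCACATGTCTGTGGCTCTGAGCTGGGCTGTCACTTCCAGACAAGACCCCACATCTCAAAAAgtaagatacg
PRMT7 exon 5: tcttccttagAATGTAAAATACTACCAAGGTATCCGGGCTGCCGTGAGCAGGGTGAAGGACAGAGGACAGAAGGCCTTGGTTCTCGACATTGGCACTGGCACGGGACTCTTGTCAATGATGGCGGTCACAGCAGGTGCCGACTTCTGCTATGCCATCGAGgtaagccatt
PRMT1 exon 2: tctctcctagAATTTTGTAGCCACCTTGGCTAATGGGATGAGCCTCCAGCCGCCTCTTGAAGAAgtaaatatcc
CARM1 exon 15: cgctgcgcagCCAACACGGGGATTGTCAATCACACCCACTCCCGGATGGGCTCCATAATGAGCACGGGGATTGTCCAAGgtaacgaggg
PRMT3 exon 2: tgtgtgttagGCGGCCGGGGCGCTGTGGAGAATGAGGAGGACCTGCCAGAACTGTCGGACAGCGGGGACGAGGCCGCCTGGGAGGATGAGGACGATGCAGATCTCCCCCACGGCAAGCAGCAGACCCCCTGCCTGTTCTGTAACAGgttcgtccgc
PRMT9 exon 2: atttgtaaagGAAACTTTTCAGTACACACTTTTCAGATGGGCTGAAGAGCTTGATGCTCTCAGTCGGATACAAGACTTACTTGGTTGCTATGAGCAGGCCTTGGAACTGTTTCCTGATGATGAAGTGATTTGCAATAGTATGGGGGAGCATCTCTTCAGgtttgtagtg
PRMT2 exon 8 lies at chr21:46658745-46658920 on the plus strand and exon 11 at chr21:46663383-46663554. PRMT7 exon 5 lies at chr16:68324683-68324832 (plus strand). PRMT1 exon 2 lies at chr19:49679872-49679925 (plus strand) and CARM1 exon 15 at chr19:10921375-10921443 (plus strand). PRMT3 exon 2 lies at chr11:20388019-20388154 (plus strand) and PRMT9 exon 2 at chr4:147680323-147680471 (minus strand). All 7 are coding over their whole length in the canonical transcript. The lengths of PRMT1 exon 2 (54 nt), CARM1 exon 15 (69 nt) and PRMT7 exon 5 (150 nt) are multiples of 3, so leaving out any of these alone keeps the reading frame. PRMT2 exon 8 (176 nt), PRMT2 exon 11 (172 nt), PRMT3 exon 2 (136 nt) and PRMT9 exon 2 (149 nt) are not multiples of 3.

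PRMT2 exon 2, at chr21:46636439-46636547 (109 nt), is untranslated in the canonical transcript, so only its splice sites are shown, with exon bases in capitals.
PRMT2 exon 2, 3′ splice site: taaaaacacattgatcccagAGC
PRMT2 exon 2, 5′ splice site: CAGgtaggg
PRMT2 exon 8, 5′ splice site: GAAgtaagt
PRMT2 exon 11, 5′ splice site: AAAgtaaga
Against CAGGTAAGT, the sequence that pairs fully with the 5′ end of U1 small nuclear RNA, the 5′ splice sites of exons 2, 8 and 11 matched at 7, 7 and 6 of 9 bases. Over the 77 different 5′ splice sites of annotated introns in the 7 genes, the median was 6 matches and the range 4 to 9, so these 3 sites were near the middle of the family.

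PRMT2, a type I enzyme that is also known as a coactivator of nuclear receptors, held all the introns called among the members. The gene lies at chr21:46635595-46665124, and 14 of its 27 introns had a mean PSI from 1 to 99% and could be tested. Skipping of its exon 2 was the more frequent outcome in every library and rose with MYCN. The intron that joins exon 1 to exon 3 and leaves exon 2 out (chr21:46635764-46636895) had a PSI of 59.0, 57.6 and 48.9% in wildtype. With SNRPD3 depleted and MYCN repressed the PSI was 59.3, 62.9 and 58.9% for siRNA 1, and 55.4, 62.4 and 60.8% for siRNA 2. MYCN+/SNRPD3+ cells had 65.6, 67.6 and 60.3%. The highest values were in MYCN+/SNRPD3- cells, at 73.8, 73.7 and 71.1% with siRNA 1 and 66.6, 69.0 and 72.1% with siRNA 2. All 6 libraries of MYCN+/SNRPD3- cells lay above all 3 wildtype libraries, and 3 of the MYCN- libraries with SNRPD3 siRNA lay above the lowest MYCN+ library.

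Tested in 1 limma fit over all introns, the exon 1 to exon 3 intron was higher by 0.65 log2 odds (SE 0.107) in the 9 MYCN+ than in the 9 MYCN- libraries, with an adjusted p of 0.00975. Mean PSI was 68.9% ± 4.4 (n = 9) against 58.3% ± 4.2 (n = 9). Between MYCN+/SNRPD3- and wildtype the limma difference was 0.98 log2 odds (SE 0.16, adjusted p = 0.0213), from 55.2% ± 5.5 to 71.1% ± 2.8 (n = 6). A difference of 1 log2 odds is a 2-fold change in the odds of an intron being the one removed, and an offset of 0.01 on the PSI makes the scale understate changes of rare introns. The intron from exon 1 to exon 2 (chr21:46635764-46636438) moved the other way, from 13.7% ± 1.6 to 9.25% ± 1.7 (n = 9 each). Its change with MYCN was -0.60 log2 odds (limma adjusted p = 0.0137), and no MYCN+ library reached the lowest MYCN- library. Between MYCN+/SNRPD3- and wildtype the change of this intron was -0.86 log2 odds (limma adjusted p = 0.0327), from 14.9% ± 0.6 to 8.50% ± 1.5 (n = 6). These 2 introns belong to 1 cluster and so are 1 event. Against wildtype, the call of the exon 1 to exon 3 intron was lost without wildtype replicate 2 or 3, with estimates from 0.8 to 1.09 log2 odds over the 18 removals. That of the exon 1 to exon 2 intron was lost in 8 of the 18 (-0.94 to -0.8 log2 odds over all 18). These 8 were each wildtype library, MYCN+/SNRPD3+ replicate 2, replicates 1 and 2 of MYCN+/SNRPD3- siRNA 1 and replicates 1 and 3 of siRNA 2.

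Read as an exon, PRMT2 exon 2 was skipped in 73.0% ± 4.7 of its events in wildtype and in 80.2% ± 2.8 in MYCN+/SNRPD3+ cells. With SNRPD3 siRNA 1 and siRNA 2 the share was 77.4 and 76.8% with MYCN repressed and 85.9 and 83.8% with MYCN expressed. The skipping share of exon 2 rose by 0.65 log2 odds with MYCN (limma adjusted p = 0.0114), and by 1.00 log2 odds from wildtype to MYCN+/SNRPD3- (limma adjusted p = 0.0132). With SNRPD3 knockdown over both MYCN states the difference was 0.37 log2 odds (limma adjusted p = 0.212; 95% interval 0.09 to 0.65), which did not pass the test. The difference of the knockdown effect between MYCN+ and MYCN- cells did not pass the test for this exon (interaction 0.15 log2 odds, SE 0.263, limma adjusted p = 0.999). Exon 1 to exon 3 splicing is used by 7 annotated transcripts, all coding, and the exon 1 to exon 2 intron by 1.

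Farther downstream in PRMT2, the skipping shares of exons 8 and 11 were higher in MYCN+/SNRPD3- cells than in wildtype. Both are left out by the same intron (chr21:46649740-46664294), which joins exon 7 to exon 12 and removes exons 8 to 11. Those 4 exons hold 615 nt of coding sequence, a multiple of 3, although none of the 4 is itself one (176, 130, 137 and 172 nt). The flanking introns in the exon 8 share are exon 7 to exon 8 and exon 8 to exon 12 (mean PSI 0.207%). The more frequent exon 8 to exon 9 intron (mean PSI 13.7%) is left out, so this share is not the skipping rate of exon 8. By this measure the exon 8 skipping share was 10.4, 10.9 and 12.7% in wildtype. It was 17, 14.6 and 26.4% with siRNA 1 and 23.6, 10.8 and 22.3% with siRNA 2 while MYCN was repressed. MYCN+/SNRPD3+ cells had 22.0, 18.2 and 18.4%. With MYCN expressed and SNRPD3 depleted it was 31.1, 21.4 and 28.1% with siRNA 1, and 27.7, 31.6 and 40.6% with siRNA 2. The wildtype libraries and the 6 MYCN+/SNRPD3- libraries did not overlap. Of the libraries with 1 change, 10.8% with knockdown lay within the wildtype range, and 22.0% with MYCN and 26.4, 23.6 and 22.3% with knockdown lay within the MYCN+/SNRPD3- range.

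**Figure D1:**
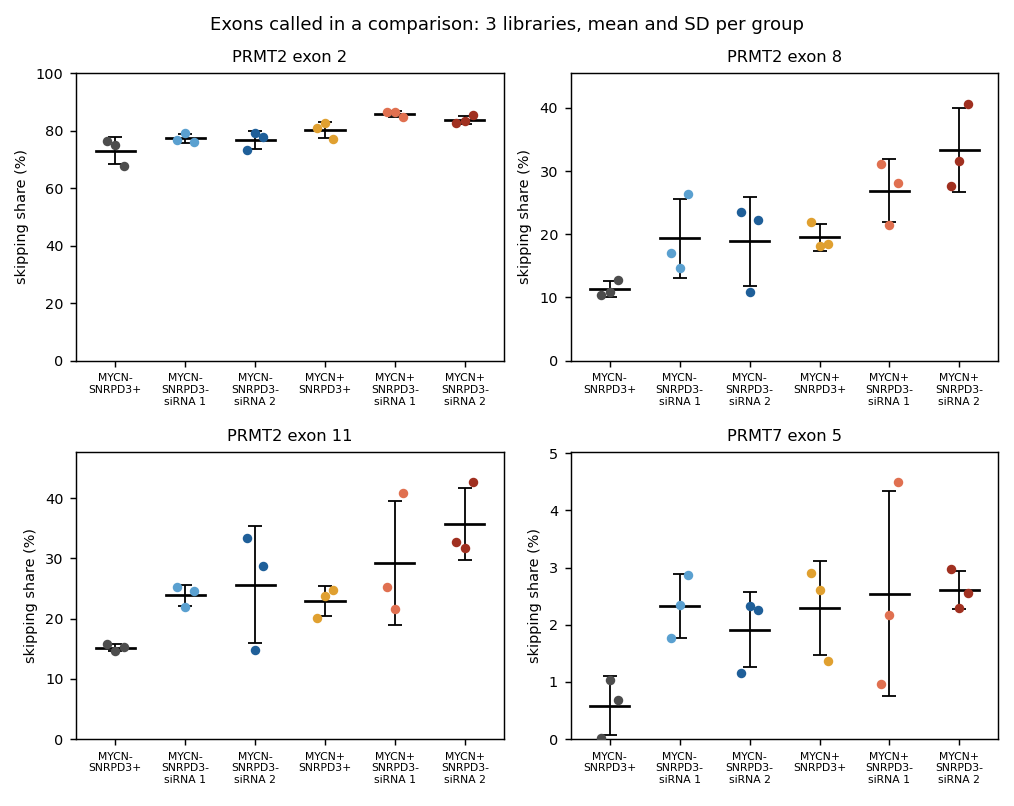
Skipping share (%, y axis) of PRMT2 exons 2, 8 and 11 and PRMT7 exon 5 in the 6 groups (x axis). Points are the 3 libraries of a group, bars the mean and whiskers the SD. For the PRMT2 exons the wildtype libraries lie lowest on average and the MYCN+/SNRPD3- libraries highest, with exon 8 going from a mean of 11.4% to 26.9 and 33.3%. PRMT7 exon 5 stays under 5% in every library.

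The difference in the exon 8 skipping share between MYCN+/SNRPD3- and wildtype was 1.66 log2 odds (SE 0.314, limma adjusted p = 0.0139). The share went from 11.4% ± 1.2 to 30.1% ± 6.3 (n = 6). With MYCN over all SNRPD3 states the exon 8 share rose by 0.87 log2 odds (limma adjusted p = 0.0316), from 16.5% ± 6.1 to 26.6% ± 7.3 (n = 9 each). Leaving out 1 library lost this second call in 10 of 18 cases, with the estimate between 0.74 and 0.97. These were all 3 MYCN+/SNRPD3+ replicates, wildtype replicates 1 and 2, replicates 1 and 2 of MYCN-/SNRPD3- siRNA 1, replicates 1 and 3 of MYCN+/SNRPD3- siRNA 1 and replicate 3 of MYCN+/SNRPD3- siRNA 2. For knockdown over both MYCN states the exon 8 difference was 0.78 log2 odds (95% interval 0.3 to 1.26), with a limma adjusted p of 0.139. The exon 8 interaction was 0.00 log2 odds (SE 0.445).

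Exon 11 was skipped in 15.7, 14.6 and 15.2% of its events in wildtype. In MYCN+/SNRPD3- cells the exon 11 share was 25.3, 21.5 and 40.8% with siRNA 1 and 32.7, 31.7 and 42.6% with siRNA 2. The 3 wildtype libraries were below all 6 of these, and the limma difference was 1.34 log2 odds (SE 0.327, adjusted p = 0.0319). With MYCN alone the share was 22.9% ± 2.4, and with knockdown alone it was 23.9 and 25.6%. None of these single changes was called for exon 11. The shared exon 7 to exon 12 intron itself had a PSI of 1.25% ± 0.14 in wildtype and of 2.79 and 3.93% in MYCN+/SNRPD3- cells with siRNA 1 and siRNA 2. Its limma difference of 0.97 log2 odds had an adjusted p of 0.0531 and did not pass the threshold. Because exons 8 and 11 share this intron, their 2 calls count the same skipping reads. Against wildtype, the exon 11 call was lost without any 1 wildtype library or replicate 3 of either MYCN+/SNRPD3- group (1.15 to 1.48 log2 odds over the 18 removals). The exon 8 call was lost without wildtype replicate 1 or 2 (1.54 to 1.76), and the exon 2 call without wildtype replicate 3, where the estimate was lowest (0.81).

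Over all members, 95 introns could be tested, 47 had a mean PSI below 1% and 8 above 99%. Between MYCN+/SNRPD3- and wildtype 2 of the 95 were called, both in PRMT2, against 0.559% of the 152722 introns tested over the whole table. With MYCN over all SNRPD3 states the same 2 introns were called, against 1.23% of the table. None was called for MYCN alone (0.0543% of the table), for knockdown with MYCN repressed (0.0138%) or for knockdown with MYCN expressed (0.0196%). None was called either for knockdown over both MYCN states (0.0242%) or for the interaction (0.0177%). At an unadjusted p under 0.05, limma gave 5, 1, 10, 9 and 4 member introns in these 5 comparisons. The table as a whole had 6.19, 4.69, 7.06, 7.8 and 3.98% of introns at that level, against 5.26, 1.05, 10.5, 9.47 and 4.21% of the members. In MYCN+/SNRPD3- against wildtype 16 member introns (16.8%, against 11% of all introns) and with MYCN 17 (17.9%, against 11.7%) were under that level. The median absolute limma difference of the member introns was 0.13 log2 odds with MYCN and 0.11 with knockdown, below the 0.23 and 0.21 of all introns. Libraries of the 2 groups did not overlap for 9 of the 95 introns in knockdown with MYCN expressed (3.54% of all introns), for 10 between MYCN+/SNRPD3- and wildtype (6.53%) and for 7 with MYCN alone (11.8%). The number was 1 for knockdown with MYCN repressed (2.52%), 1 with MYCN over all SNRPD3 states (0.353%) and 0 for knockdown over both MYCN states (0.0642%). The comparisons share libraries, so their counts are not separate evidence.

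**Figure D2:**
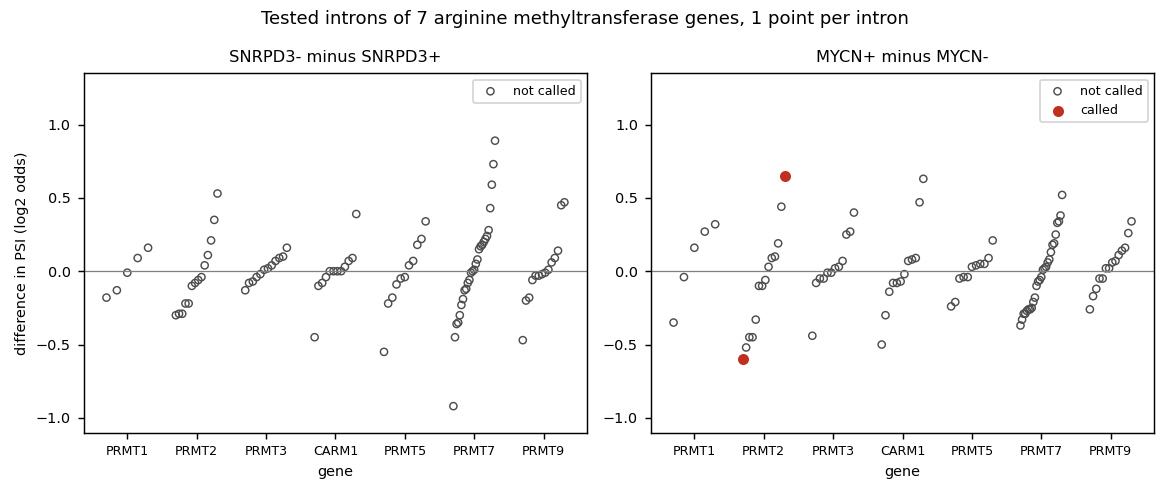
Difference in PSI (log2 odds, y axis) of each tested intron of 7 genes (x axis), SNRPD3- minus SNRPD3+ on the left and MYCN+ minus MYCN- on the right. Each point is 1 intron and filled points passed the test. The only filled points are the 2 PRMT2 introns at 0.65 and -0.60, while the PRMT7 introns spread widest with knockdown, from -0.92 to 0.89, with none called.

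Of the 18 cassette sets, 16 could be tested. In MYCN+/SNRPD3- against wildtype 4 of the 16 were called, all with a higher skipping share, against 5.68% of the 18508 sets in the table, of which 983 were higher and 68 lower. These were PRMT2 exons 2, 8 and 11 and PRMT7 exon 5. With MYCN 2 of the 16 were called, PRMT2 exons 2 and 8, against 4.85% of the table. None was called for MYCN alone (0.0324% of the table) or for knockdown with MYCN expressed (0.0378%). None was called for knockdown with MYCN repressed, for knockdown over both MYCN states or for the interaction, where the table had 0.0% as well. At an unadjusted p under 0.05, limma gave 3, 2, 3, 4 and 0 sets in these 5 comparisons, where 8.16, 13.1, 6.45, 15.3 and 4.14% of all sets were at that level. It gave 4 sets between MYCN+/SNRPD3- and wildtype (22.3% of all sets) and 5 with MYCN (21.3%). Libraries of the 2 groups did not overlap for 3 sets between MYCN+/SNRPD3- and wildtype (13.6% of all sets), 4 with MYCN alone (15.9%), 1 for knockdown with MYCN expressed (7.25%) and 1 with MYCN repressed (4.17%). None was without overlap over both MYCN states for knockdown (0.243%) or with MYCN over all SNRPD3 states (0.735%). The median limma difference of the 16 sets between MYCN+/SNRPD3- and wildtype was 0.333 log2 odds, beside 0.329 over all sets. The 3 wildtype libraries weigh on this comparison: without any 1 of them 1 exon was called. It was 2 without replicate 3 of either MYCN+/SNRPD3- group. For introns in the same comparison, 0 were called without wildtype replicate 2 or 3.

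PRMT1, the main producer of asymmetric dimethylarginine in most cells, lies at chr19:49675786-49689029, and 5 of its 11 introns could be tested. Exon 2, which carries a nuclear export signal, was skipped in most events in every library. Its skipping share was 85.4, 86.8 and 79.4% in wildtype. With knockdown in MYCN- cells it was 89.1, 87.3 and 82.0% with siRNA 1, and 88.2, 88.0 and 86.3% with siRNA 2. MYCN+/SNRPD3+ cells had 79.1, 83.6 and 83.8%, and MYCN+/SNRPD3- cells had 82.3, 79.4 and 86.5% with siRNA 1 and 84.0, 78.7 and 84.5% with siRNA 2. The wildtype libraries overlapped every other group, while the 3 MYCN- libraries with siRNA 2 lay above all 3 MYCN+/SNRPD3+ libraries. The MYCN+ mean was 82.4% ± 2.8 and the MYCN- mean 85.8% ± 3.2 (n = 9 each), a limma difference of -0.36 log2 odds (95% interval -0.71 to -0.01) with an adjusted p of 0.22. With knockdown the PRMT1 exon 2 difference was 0.18 log2 odds (95% interval -0.19 to 0.55, limma adjusted p = 0.662). The PRMT1 intron with the smallest p in both main comparisons, exon 2 to exon 3 (chr19:49679926-49680486), belongs to the same event. Its PSI was 14.8% ± 2.1 in MYCN+ and 12.1% ± 2.3 in MYCN- libraries (limma adjusted p = 0.343). With knockdown it was 13% ± 2.5 (n = 12) against 14.5% ± 2.6 (n = 6; limma adjusted p = 0.861).

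CARM1, also called PRMT4, a coactivator that methylates histone H3 and splicing factors, lies at chr19:10871553-10923075, and 12 of its 19 introns could be tested. Exon 15 encodes the stretch that holds the automethylation site of the enzyme, and both forms were common. Its skipping share ranged from 41.5 to 63.7% over the 18 libraries. It was 62.0, 55.7 and 56.0% in wildtype and 41.5, 53.8 and 63.4% in MYCN+/SNRPD3+ cells, so the latter 3 libraries spanned nearly the whole range. With siRNA 1 and siRNA 2 the means were 57.2 and 55.7% in MYCN- and 57.6 and 56.1% in MYCN+ cells. The limma difference was -0.08 log2 odds with MYCN (95% interval -0.45 to 0.29, adjusted p = 0.848). With knockdown it was 0.07 log2 odds (95% interval -0.33 to 0.47, limma adjusted p = 0.897).

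**Figure D3:**
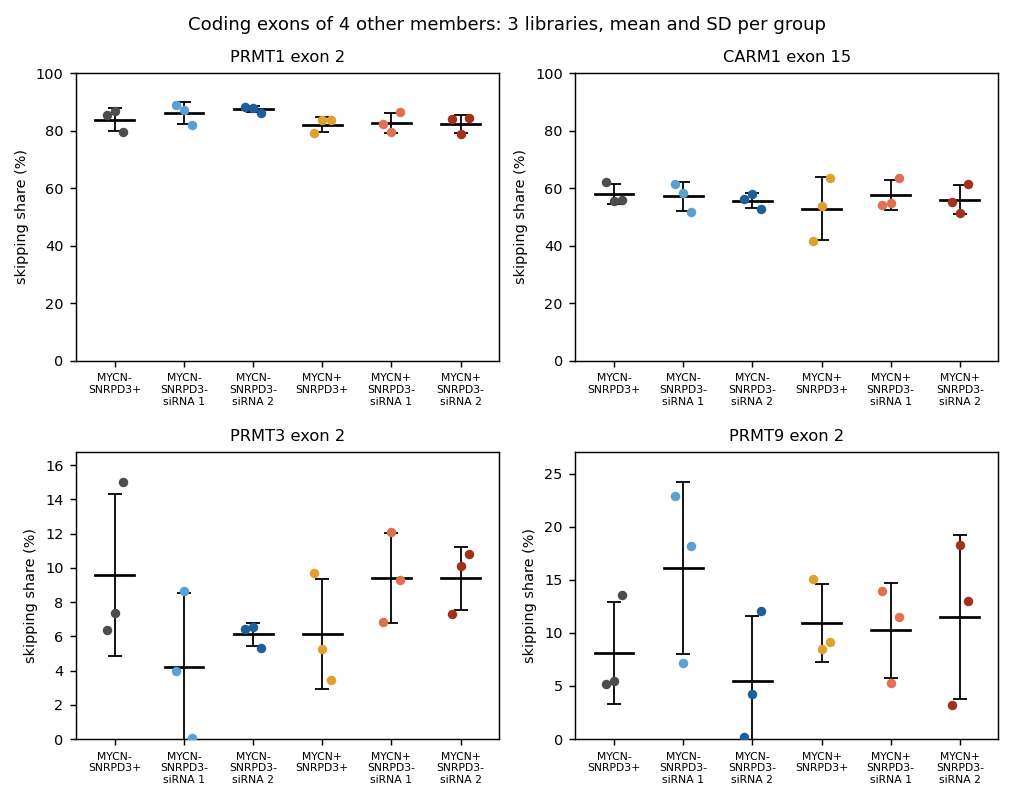
Skipping share (%, y axis) of PRMT1 exon 2, CARM1 exon 15, PRMT3 exon 2 and PRMT9 exon 2 in the 6 groups (x axis). Points are the 3 libraries of a group, bars the mean and whiskers the SD. PRMT1 exon 2 lies between 78.7 and 89.1% and CARM1 exon 15 between 41.5 and 63.7%, and in all 4 panels the wildtype libraries overlap each of the other groups.

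A second CARM1 event lay between exons 3 and 4. An exon in the intron between them (chr19:10908550-10908633, or 10908668 in a longer form) occurs only in transcripts annotated for nonsense-mediated decay, the pathway that degrades mRNA with a premature stop. It was skipped in 99.2% of events on average and was too rare to test as an exon. The intron from exon 3 into it (chr19:10908146-10908549) had the smallest p of the CARM1 introns with MYCN. Its PSI was 0.48, 0.625 and 1.68% in wildtype and 0.938, 1.16 and 1.08% in MYCN+/SNRPD3+ cells. With knockdown in MYCN- cells it was 1.17, 1.14 and 1.75% with siRNA 1 and 0.917, 0.456 and 1.13% with siRNA 2. MYCN+/SNRPD3- cells had 1.88, 2.38 and 3.22% with siRNA 1, and 1.85, 1.28 and 2.68% with siRNA 2. The limma difference with MYCN was 0.47 log2 odds, with an adjusted p of 0.175. The exon 3 to exon 4 intron (chr19:10908146-10909102) had the smallest p with knockdown, at 97.9% ± 0.99 (n = 12) against 98.8% ± 0.41 (n = 6) and -0.45 log2 odds (limma adjusted p = 0.517).

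PRMT3, a mostly cytosolic enzyme that methylates the ribosomal protein RPS2, lies at chr11:20387558-20509338, and 12 of its 22 introns could be tested. Its median intron varied by 2.47 percentage points over the 18 libraries, less than the 5.32 points of PRMT7. Exon 2 was skipped in 9.56% ± 4.7 of events in wildtype and in 6.14% ± 3.2 in MYCN+/SNRPD3+ cells. With siRNA 1 and siRNA 2 it was 4.22% ± 4.3 and 6.12% ± 0.69 in MYCN- cells, and 9.43% ± 2.6 and 9.4% ± 1.8 in MYCN+ cells. In single libraries this share went from 0.0723 to 15%. The limma difference was 0.50 log2 odds with MYCN (95% interval -0.3 to 1.3) and -0.18 with knockdown (95% interval -1.03 to 0.67), so effects of either sign are within the error. Exon 4 (50 nt, coding) was skipped in a mean of 4.5%, from 1.64 to 9% over the libraries. The PRMT3 intron with the smallest p in both comparisons was exon 8 to exon 9 (chr11:20402985-20407910), at 98.6% ± 0.34 in MYCN+ and 98.1% ± 0.55 in MYCN- libraries (0.27 log2 odds, limma adjusted p = 0.422). With knockdown its difference was 0.16 log2 odds (limma adjusted p = 0.88).

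PRMT5, the enzyme that methylates SmD3, lies at chr14:22920525-22929408 on the minus strand, and 11 of its 14 introns could be tested. None was called in any of the 7 comparisons. The introns that join canonical neighbours were nearly always chosen at most positions. The exon 16 to exon 17 intron was at 97.8 to 99.1% over the 18 libraries, and the exon 1 to exon 2 intron at 92.4 to 97.2%. The exon 2 to exon 3 intron was at 95.5 to 97.8%. The introns from exon 3 to 4, exon 7 to 8 and exon 3 to 8 belong to 1 cluster, in which the exon 3 to exon 4 intron held 50.9 to 55.1% and the exon 7 to exon 8 intron 43.5 to 48.6% of the spanning reads. The intron that joins exon 3 to exon 8 and leaves out exons 4 to 7 stayed between 0.208 and 1.62%. Its mean was 0.509% ± 0.091 in wildtype and 0.523% ± 0.083 and 0.494% ± 0.18 in MYCN-/SNRPD3- cells with siRNA 1 and siRNA 2. It was 0.34% ± 0.15 in MYCN+/SNRPD3+ cells, and 1.16% ± 0.42 and 0.929% ± 0.44 in MYCN+/SNRPD3- cells with siRNA 1 and siRNA 2. With a mean under 1% over all libraries, this intron was not tested.

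The PRMT5 values that varied most lay inside the last exon (chr14:22920529-22921056). There, 3 introns share the 3′ splice site at their lower coordinate, chr14:22920732, and differ in their 5′ splice site. The shortest, of 108 nt, ends at 22920839 and lies in the untranslated end of the canonical transcript. The middle one, of 256 nt, ends at 22920987 and spans the canonical stop codon, and the longest (313 nt) matches no annotated intron. The 108 nt intron had the smallest p of PRMT5 with knockdown. Its PSI was 29.3, 30.1 and 27.7% in wildtype. With knockdown in MYCN- cells it was 40.9, 29.7 and 34.7% with siRNA 1 and 32.7, 35.4 and 29.6% with siRNA 2. In MYCN+ cells it was 21.7, 28.8 and 25.3% with control siRNA, 25.4, 29.5 and 33.3% with siRNA 1 and 29.1, 33.1 and 32.5% with siRNA 2. The knockdown libraries were at 32.2% ± 3.9 (n = 12) and the control libraries at 27.2% ± 3.1 (n = 6), and the 2 sets overlapped. The limma difference was 0.34 log2 odds (95% interval 0.07 to 0.61) with an adjusted p of 0.486. The 256 nt intron held 43.9 to 61.2% and the unannotated intron 3.75 to 15.4%. With MYCN the PRMT5 intron with the smallest p was exon 16 to a 3′ splice site just inside exon 17 (chr14:22921054-22922175). It was at 1.31% ± 0.27 in MYCN+ and 1.67% ± 0.31 in MYCN- libraries (-0.21 log2 odds, limma adjusted p = 0.41).

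**Figure D4:**
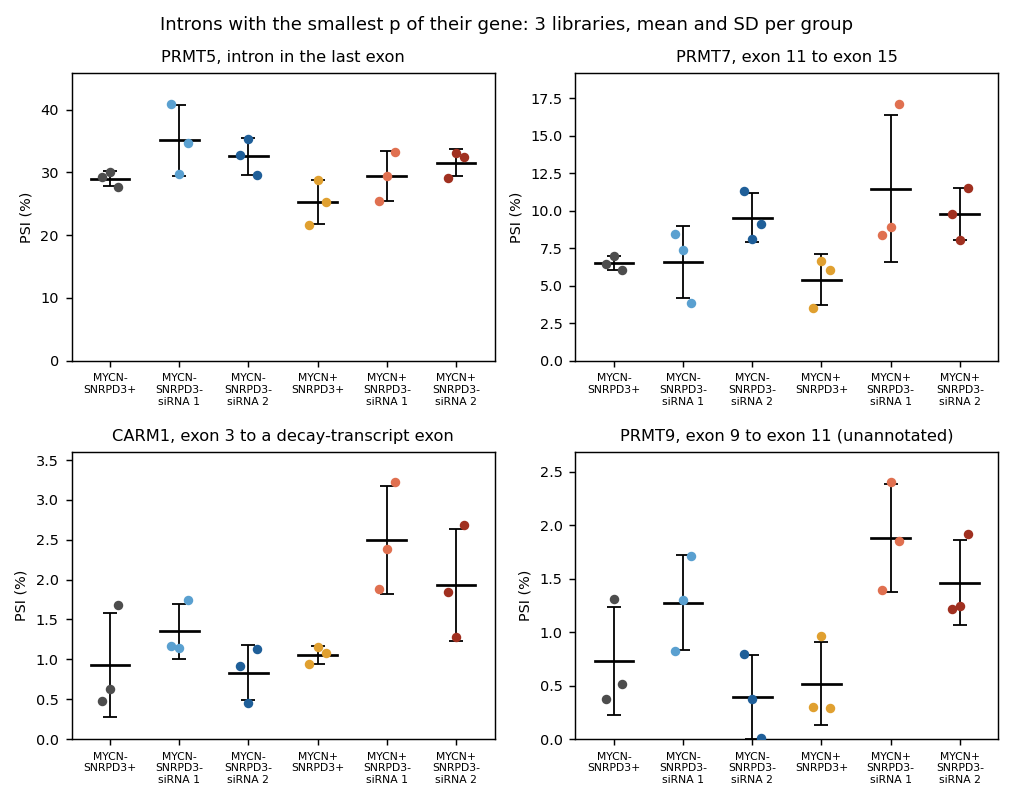
PSI (%, y axis) of 4 introns, each with the smallest unadjusted p of its gene for knockdown (PRMT5, PRMT7, PRMT9) or MYCN (CARM1), in the 6 groups (x axis). Points are the 3 libraries of a group, bars the mean and whiskers the SD. None was called. The PRMT5 intron lies between 21.7 and 40.9%, and the groups with and without SNRPD3 siRNA overlap.

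PRMT9, the other type II enzyme, which methylates the splicing factor SF3B2, lies at chr4:147637785-147684163 on the minus strand, and 14 of its 20 introns could be tested. None was called. Exon 2 skipping was among the least repeatable values of the family, from 0.172 to 22.9% over the 18 libraries. It was 5.18, 5.49 and 13.6% in wildtype and 15.1, 8.45 and 9.11% in MYCN+/SNRPD3+ cells. With knockdown in MYCN- cells it was 22.9, 7.15 and 18.2% with siRNA 1 and 0.172, 4.2 and 12.1% with siRNA 2, so these 6 libraries spanned the whole range. In MYCN+/SNRPD3- cells it was 13.9, 5.26 and 11.5% with siRNA 1 and 3.17, 18.3 and 13% with siRNA 2. Its limma difference was 0.41 log2 odds with MYCN (95% interval -0.65 to 1.47) and -0.06 with knockdown (95% interval -1.19 to 1.07). The PRMT9 intron with the smallest p in both comparisons, exon 9 to exon 11 (chr4:147639083-147653851), is not annotated and rare. Its PSI was 0.372, 1.31 and 0.515% in wildtype and 0.30, 0.963 and 0.29% in MYCN+/SNRPD3+ cells. With knockdown in MYCN- cells it was 0.819, 1.3 and 1.71% with siRNA 1 and 0.796, 0.378 and 0.011% with siRNA 2, so the 2 siRNAs lay on either side of the wildtype mean of 0.733%. MYCN+/SNRPD3- cells had 1.39, 2.40 and 1.85% with siRNA 1 and 1.22, 1.24 and 1.92% with siRNA 2, all above the 3 MYCN+/SNRPD3+ libraries. With knockdown over both MYCN states the difference was 0.45 log2 odds (limma adjusted p = 0.513). With MYCN it was 0.34 log2 odds (limma adjusted p = 0.431).

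PRMT7, the monomethylating enzyme, lies at chr16:68310951-68360852 and had the most alternative introns, 27 of 37 of which could be tested, and 8 of the 18 cassette sets. Exon 5 was skipped rarely, in 0.0266, 1.04 and 0.689% of events in wildtype. In MYCN+/SNRPD3- cells its share was 0.967, 2.17 and 4.49% with siRNA 1 and 2.97, 2.30 and 2.55% with siRNA 2. The groups overlapped in 1 library, and the means were 0.587% ± 0.52 and 2.57% ± 1.2 (n = 6). The limma difference of 1.19 log2 odds passed narrowly (adjusted p = 0.0479), and the call held in 1 of the 18 fits that left out a library. Without wildtype replicate 1 the difference was 0.90 log2 odds (limma adjusted p = 0.188), and without replicate 2 or 3 it was 1.41 and 1.27 (limma adjusted p = 0.0762 and 0.107). The only removal that kept the call was that of MYCN+/SNRPD3- siRNA 1 replicate 1. Exon 5 was at 2.29% ± 0.82 with MYCN alone and at 2.33 and 1.91% with knockdown alone.

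The untranslated PRMT7 exon 2 (135 nt) was skipped in a mean of 64.2% of events from one first-exon 5′ splice site and of 34.8% from another, and exon 4 (37 nt, coding) in 8.51%. None of these was called. Exon 18 (97 nt, coding) was skipped in a mean of 2.39%, from 0.0317 to 9.65% over the libraries. An exon between exons 17 and 18, listed in 2 overlapping forms of 186 and 75 nt that share their 5′ splice site and their skipping intron, occurs only in decay-annotated transcripts. The forms were skipped in a mean of 95.2 and 95.1% of events, from 68 to 100% over libraries. The lowest value of both forms was in 1 library, MYCN-/SNRPD3- siRNA 1 replicate 3. The next lowest was 85.8%, in MYCN+/SNRPD3- siRNA 1 replicate 2.

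The PRMT7 exon with the highest mean skipping share, 95.8%, was an exon of 425 nt between exons 14 and 15 (chr16:68351390-68351814) that occurs only in decay-annotated transcripts. Its skipping share stayed between 92.6 and 97.9%, with limma differences of 0.19 log2 odds for MYCN (adjusted p = 0.609) and 0.25 for knockdown (adjusted p = 0.588). The intron from exon 11 to exon 15 (chr16:68346281-68352247) had the smallest p of PRMT7 with knockdown. Its PSI was 6.43, 6.97 and 6.06% in wildtype and 3.48, 6.64 and 6.07% in MYCN+/SNRPD3+ cells. With knockdown in MYCN- cells it was 8.47, 7.38 and 3.85% with siRNA 1 and 11.3, 8.13 and 9.14% with siRNA 2. With MYCN expressed and SNRPD3 depleted it was 8.38, 8.88 and 17.1% with siRNA 1 and 9.80, 8.03 and 11.5% with siRNA 2. The limma difference with knockdown was 0.59 log2 odds (adjusted p = 0.452). With MYCN the smallest p was that of the unannotated exon 11 to exon 13 intron (chr16:68346281-68347630), at 2.31% ± 0.49 in MYCN+ and 1.60% ± 0.61 in MYCN- libraries (0.38 log2 odds, limma adjusted p = 0.242).

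Unannotated introns took a small part of the PSI of each gene, as a description with no test. Their mean share over the 18 libraries went from 0.221% in PRMT1 to 2.08% in PRMT9. In PRMT9 the share was 1.25% ± 0.36 in wildtype and 3.55% ± 0.74 in MYCN+/SNRPD3- cells with siRNA 1, with 2.39% ± 0.52 for siRNA 2. It was 1.74% ± 0.29 in MYCN+/SNRPD3+ cells, and 2.01% ± 0.53 and 1.54% ± 0.57 with siRNA 1 and siRNA 2 in MYCN- cells. In CARM1 it was 1.37% ± 0.17 in wildtype and 0.652% ± 0.11 in MYCN+/SNRPD3+ cells. With siRNA 1 and siRNA 2 the CARM1 share was 0.839% ± 0.25 and 1.09% ± 0.43 in MYCN- cells, and 0.675% ± 0.16 and 1.11% ± 0.22 in MYCN+ cells. In PRMT5 it stayed between 0.636 and 2.58% in single libraries.

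Genes that work with these enzymes were read from a list of 15 (other methyltransferases PRMT8, NDUFAF7 and METTL23; the PRMT5 cofactors WDR77, CLNS1A, RIOK1 and COPRS; methyl donor enzymes MAT2A, MAT2B, AHCY and MTAP; readers TDRD3, SMNDC1 and SND1; and JMJD6). The table listed 193 introns for them and 106 could be tested. With MYCN 5 introns were called, against 1.23% of all introns, 3 higher and 2 lower, in MAT2B, TDRD3 and RIOK1. In MYCN+/SNRPD3- against wildtype 3 were called (2 higher, 1 lower; 0.559% of all introns), in MAT2B and TDRD3. With MYCN alone 2 were called (0.0543% of all introns), both in MAT2B. None was called in the other 4 comparisons, and none in WDR77 or CLNS1A. MAT2A, which makes S-adenosylmethionine, had 4 introns listed and 0 tested, and PRMT8 had 0 listed.

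MAT2B, the regulatory subunit of methionine adenosyltransferase, changed its first exon with MYCN. The intron from the upstream first exon (chr5:163503425-163512001), which is the first intron of 4 annotated transcripts, had a PSI of 38.4, 38.8 and 38.0% in wildtype and of 61.0, 59.2 and 55.8% in MYCN+/SNRPD3+ cells. With SNRPD3 siRNA it was 34.4 to 42.3% in MYCN- and 52.0 to 60.3% in MYCN+ cells. The 9 MYCN+ libraries lay above all 9 MYCN- libraries, at 57.9% ± 2.8 against 38.7% ± 2.4. The limma difference for MAT2B was 1.11 log2 odds (SE 0.085, adjusted p = 3.57e-05). With knockdown it was -0.02 log2 odds (SE 0.0901, limma adjusted p = 0.994). The intron from the other first exon (chr5:163505750-163512001), the canonical intron 1, moved as its mirror. The call of the MAT2B introns with MYCN over all SNRPD3 states held in all 18 fits that left out a library, and that with MYCN alone was lost without MYCN+/SNRPD3+ replicate 2 (1.1 to 1.25 log2 odds over the 18).

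**Figure D5:**
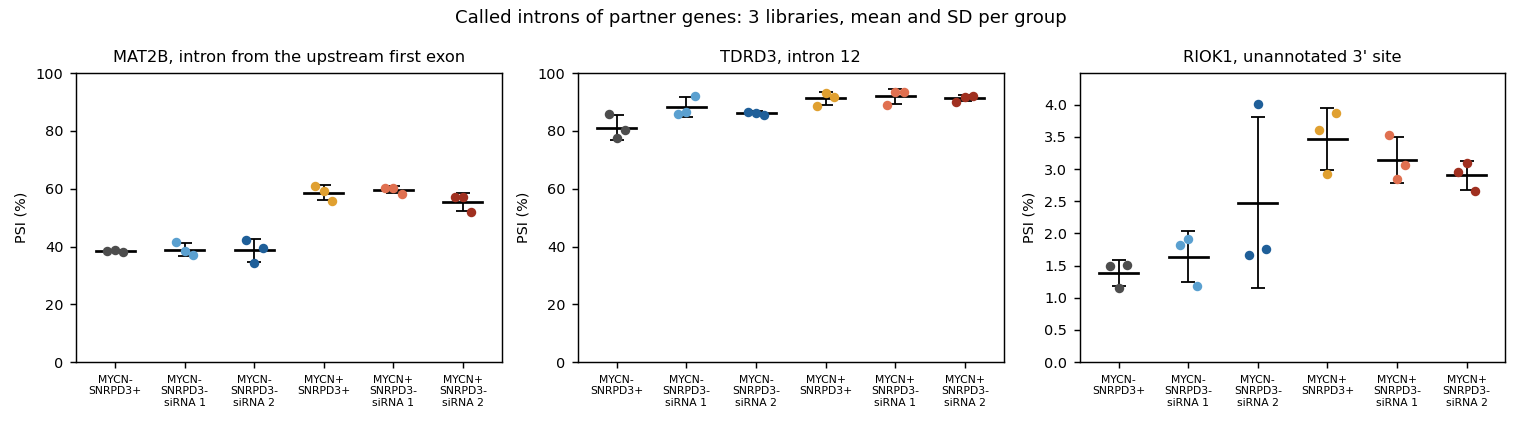
PSI (%, y axis) of called introns of MAT2B, TDRD3 and RIOK1 in the 6 groups (x axis). Points are the 3 libraries of a group, bars the mean and whiskers the SD. The MAT2B panel separates the MYCN- libraries (34.4 to 42.3%) from the MYCN+ libraries (52.0 to 61.0%).

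TDRD3, whose Tudor domain reads asymmetric dimethylarginine, had 1 called intron, the canonical intron 12 (chr13:60535234-60567524). Its PSI was 85.9, 77.4 and 80.2% in wildtype and 88.8, 93.3 and 91.7% in MYCN+/SNRPD3+ cells. With siRNA 1 and siRNA 2 it was 85.8 to 92.1% and 85.7 to 86.7% in MYCN- cells, and 89.0 to 93.6% and 90.2 to 92.2% in MYCN+ cells. It rose by 0.82 log2 odds with MYCN (limma adjusted p = 0.0322) and by 1.26 from wildtype to MYCN+/SNRPD3- (limma adjusted p = 0.046). Both calls were near the threshold. The first held in 5 of the 18 fits that left out a library, those without replicate 1 of wildtype or of any of the 3 MYCN+ groups, or without replicate 3 of MYCN-/SNRPD3- siRNA 1 (0.76 to 0.91 log2 odds over the 18). The second held in 3 of 18 (1.09 to 1.49), those without replicate 1 of MYCN+/SNRPD3+ or of MYCN+/SNRPD3- siRNA 1, or without replicate 3 of MYCN-/SNRPD3- siRNA 1. RIOK1, an adaptor of PRMT5, used an unannotated 3′ splice site (chr6:7412943-7414253) more with MYCN, at 3.17% ± 0.4 against 1.84% ± 0.86 (n = 9 each). The limma difference for RIOK1 was 0.62 log2 odds (adjusted p = 0.0342), and the canonical intron 15 fell by the same amount. The RIOK1 calls held in 2 of the 18 fits that left out a library, those without MYCN+/SNRPD3+ replicate 2 or MYCN-/SNRPD3- siRNA 2 replicate 2 (0.56 to 0.72 log2 odds over the 18), and were lost without any 1 of the other 16.

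Over the whole series, correlations of log2 odds between libraries were 0.847 to 0.871 within groups (18 pairs) and 0.844 to 0.877 between groups (135 pairs), so the 2 ranges overlapped almost fully. The cell line was checked only by which genes had introns listed. Of 5 mesenchymal neuroblastoma markers, PRRX1, FOSL1, FN1 and YAP1 had introns listed and VIM had 0. Of adrenergic markers, HAND2 and GATA3 had introns listed and TH and DBH had 0. Of markers of other cell types, PTPRC had 0, PECAM1 had 4 and EPCAM had 6. A listed intron is no measure of expression. Neither the knockdown of SNRPD3 nor the level of MYCN was checked here, so both rest on the labels.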

How the data were processed

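RNA of 18 SHEP.tet21n libraries (6 groups of 3) was sequenced as polyadenylated, stranded RNA-seq. The submitters' processing notes name STAR 2.5.0a and SAMtools 1.3.1, and the authors grouped introns on hg38 with leafcutter (version not given in the sources used here) and GENCODE release 28. The values deposited by the authors are fractions (PSI), each intron's part of the reads that span its cluster, printed here as percent. The authors' comparisons (FDR and delta PSI per pair of groups) were not used. All columns matched a library label, and 0 were left without one.

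Introns were placed on GENCODE release 44. PSI and exon skipping shares with a mean from 0.01 to 0.99 were transformed to log2((value + 0.01)/(1 - value + 0.01)) and fitted with limma 3.58.1 in R 4.3.3 (package data.table, version 1.17.8), with all 6 groups in 1 fit and a Benjamini-Hochberg adjusted p threshold of 0.05 over the 152722 introns or 18508 exon sets tested. For knockdown, MYCN and mixed comparisons the siRNA groups were averaged. Tables and plots used Python 3.11.15, numpy 2.4.6, pandas 2.3.3 and matplotlib 3.10.9.

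The fit was tested on simulated data for knockdown over both MYCN states, with 200 features shifted. Shifts of 1, 2 and 4 log2 odds were called in 26.5, 56 and 79% of introns and in 27.5, 64.5 and 88% of exon sets. In the same simulations 4, 8 and 13 unshifted introns and 2, 11 and 13 unshifted exon sets were called as well.

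The members and lists were chosen with earlier results of these data known. Introns given with values are those called in any comparison, the 1 with the smallest p per gene for knockdown and for MYCN, the exon with the highest mean skipping share per gene, PRMT1 exon 2 and CARM1 exon 15, and called introns of partner genes. Values of other introns and exons are given as ranges. The PRMT5 exon 3 to exon 8 intron was chosen after its values were seen. Alternatives were other offsets (0.001, 0.05), filters (none, or a mean from 0.05 to 0.95), the untransformed scale, eBayes with trend and robust options, only features with 18 different values, only the groups compared, either siRNA alone, a replicate block and leaving out each library.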

Additional observations from a re-analysis of the deposited data

How the results depend on the processing

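Of 400 recomputed counts of called introns or exons, 365 stayed within 1.5 times the reported count and 35 did not. The 365 include every recomputed count of the comparisons with 0 called, which stayed at 0. All 35 that moved were counts with MYCN over all SNRPD3 states or of MYCN+/SNRPD3- against wildtype. Of 1229 recomputed differences of named introns and exons, 1061 kept their direction and side of the threshold, 151 kept the direction but lost the call and 17 reversed. The 1061 include differences that were not called as reported and so had no call to lose. For MYCN+/SNRPD3- against wildtype, where 2 introns were called, 1 was called with trend and robust options, 0 with only the groups compared, 1 with siRNA 1 only and 0 with siRNA 2 only, and leaving out a library gave 0 to 3. The 4 exons of that comparison became 0 with only the groups compared, 2 with siRNA 1 only and 1 with siRNA 2 only, and 1 to 4 with a library left out. With MYCN, the 2 introns became 1 with siRNA 1 only and 0 with siRNA 2 only, and the 2 exons became 0 with either siRNA alone and 1 to 2 with a library left out. PRMT2 exon 2 kept its call with MYCN in 26 of 28 alternatives and PRMT2 exon 8 in 16 of 28. Of the partner introns, those of MAT2B kept it in 28 of 28, TDRD3 in 13 of 28 and RIOK1 in 6 of 27. Against wildtype, MAT2B kept its calls in 29 of 29 and TDRD3 in 9 of 29. Using 1 siRNA or only the groups compared leaves fewer samples in the comparison. Deviations of same-numbered libraries correlated at a mean of 0.00615 for introns and 0.0116 for exon sets, with 0 of 45 pairs over 0.1. For libraries of different numbers the means were -0.00307 and -0.00576. These values cannot show whether same-numbered libraries were handled together. A replicate block gave 5 called introns in MYCN+/SNRPD3- against wildtype, 4 in PRMT2 and 1 in CARM1, and left the exon counts at 4 and 2. Reversals were among differences that were not called. PRMT3 exon 2 with siRNA 2 only gave -0.02 log2 odds for MYCN and 0.07 for knockdown. PRMT9 exon 2 gave -0.08 for MYCN with siRNA 1 only, and for knockdown 0.05 with an offset of 0.05, 0.44 with siRNA 1 only and 1.33 percentage points untransformed. Leaving out a library gave -0.18 to 0.03 for CARM1 exon 15 with MYCN, and for knockdown -0.09 to 0.22 in CARM1 exon 15, -0.36 to 0.05 in PRMT3 exon 2 and -0.28 to 0.18 in PRMT9 exon 2. The cause was not tested. Unknown depth limits all values of rare introns.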
